A study of Homo sapiens with 36 samples.

Results

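SCAF8-only sites were stretches of RNA at which PAR-CLIP clusters were called with FLAG-SCAF8 and not with FLAG-SCAF4. They were chosen by presence and absence of clusters. Clusters of the same strand were joined wherever they shared 1 nt or more, over 3 SCAF4 and 3 SCAF8 immunoprecipitation (IP) lists. A merged region was kept where clusters of at least 2 SCAF8 lists and 0 SCAF4 lists met, and where no cluster of 9 input lists or 3 control IP lists overlapped it. The rule selected 1503 sites among 77186 merged regions. Since lists of these IPs chose the sites, presence with SCAF8 and absence with SCAF4 are a description here and carry no test. The name refers to lists of called clusters, and a site without a SCAF4 cluster may still hold SCAF4 reads below the calling threshold.

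SCAF4 and SCAF8 are related nuclear proteins with a domain that binds the phosphorylated C-terminal tail of RNA polymerase II and a second domain that binds RNA. Such proteins travel with the polymerase and contact the transcript while it is being made, and their relatives in yeast act in transcription termination and 3′ end processing. In PAR-CLIP, cells take up 4-thiouridine (4SU), ultraviolet light links it to bound protein, and the crosslinked position is later read as a T-to-C change.

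The study asked which transcripts the proteins contact directly. Cells were human embryonic kidney HEK293 Flp-In T-REx cells, either parental (control) or carrying an integrated doxycycline-inducible FLAG-SCAF4 or FLAG-SCAF8 gene. Both tagged lines came from single clones, with the tag at different ends of the proteins, and kept their own SCAF4 and SCAF8 genes. All cells received 100 μM 4SU overnight and 500 μM for 2 h before 365 nm light at 2000 J/m2, and the labels give 100 ng/mL doxycycline overnight for both tagged lines and name none for parental cells, whereas the study's methods state a higher dose for all 3 lines. Each line gave 3 replicates of a FLAG IP and of the matched input, and soluble and chromatin fractions were joined into 1 list, so 36 libraries made 18 lists. The SCAF8 IP lists held 25189, 18287 and 41502 clusters in replicates 1, 2 and 3, and the SCAF4 IP lists held 18991, 54404 and 33962. Control IP lists held 9638, 2314 and 1621. Inputs held 9146, 10361 and 9008 in the SCAF8 line, 11715, 5114 and 4793 in the SCAF4 line and 12493, 4567 and 5080 in parental cells. The files give no reads behind a cluster, so read depth is unknown. The number of lists limits the precision. The SCAF8 gene, used to check the labels, held 18, 20 and 18 clusters in the SCAF8-line inputs against 1 to 10 in the other 6 inputs, and the SCAF4 gene held 16 to 17 in the SCAF4-line inputs against 1 to 7.

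Sequences of 8 sites are shown to make plain what was bound. They were taken by cluster score and by the number of sites per gene, leaving out any over 300 nt. Also left out were any that touch an exon part of a protein-coding gene outside the coding sequence of the isoform used. Among the sites left out were those of CPNE1 and TMEM86B, whose midpoints are coding. Coordinates are GRCh38, letters are the RNA-like strand from 5′ to 3′, and capitals mark TGTA, the core element to which cleavage factor I binds in pre-mRNA, and the triplets CGG and CGA. The first group has clusters in all 3 SCAF8 lists and high scores within those lists. The NUTM2B-AS1 site (chr10:79690114-79690311, minus strand) lies in an intron of a long noncoding RNA, and its mean score percentile was 89.2. It holds 4 copies of TGTA within a T-rich, GT-repeated stretch, and T made up 38.9% of it.
NUTM2B-AS1 intron: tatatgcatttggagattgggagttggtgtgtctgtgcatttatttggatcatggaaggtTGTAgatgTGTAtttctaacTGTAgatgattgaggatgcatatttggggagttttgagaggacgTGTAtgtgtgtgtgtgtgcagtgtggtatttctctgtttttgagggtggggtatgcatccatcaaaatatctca
An intergenic site with a mean score percentile of 83.9 (chr10:130194216-130194490, plus strand) holds no TGTA and 4 copies of CGG or CGA.
Intergenic, chromosome 10: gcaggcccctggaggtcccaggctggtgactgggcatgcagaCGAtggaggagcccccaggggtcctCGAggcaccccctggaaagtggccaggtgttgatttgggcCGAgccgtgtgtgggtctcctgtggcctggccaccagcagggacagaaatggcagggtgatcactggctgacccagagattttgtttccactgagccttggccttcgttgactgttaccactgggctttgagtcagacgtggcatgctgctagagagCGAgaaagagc
In PFKP, which encodes the platelet-type phosphofructokinase of glycolysis, intron 11 holds a site with a run of T (chr10:3121340-3121546, plus strand).
PFKP intron: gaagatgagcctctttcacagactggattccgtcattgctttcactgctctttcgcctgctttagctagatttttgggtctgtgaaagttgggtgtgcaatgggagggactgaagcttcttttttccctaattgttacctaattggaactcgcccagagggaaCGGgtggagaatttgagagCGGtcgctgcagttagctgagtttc
LIPE-AS1, a long noncoding RNA gene, holds a site in an exon (chr19:42652142-42652374, plus strand).
LIPE-AS1 exon: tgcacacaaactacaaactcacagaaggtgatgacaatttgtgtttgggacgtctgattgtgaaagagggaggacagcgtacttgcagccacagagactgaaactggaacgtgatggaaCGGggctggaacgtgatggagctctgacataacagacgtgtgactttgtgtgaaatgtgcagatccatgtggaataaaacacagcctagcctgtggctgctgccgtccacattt

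The second group comes from genes with the most sites. DNAH17, an axonemal dynein heavy chain of cilia and flagella, holds a site at exon 61 of 81 (chr17:78459002-78459277, minus strand) with 10 copies of CGG or CGA and no TGTA.
DNAH17 exon: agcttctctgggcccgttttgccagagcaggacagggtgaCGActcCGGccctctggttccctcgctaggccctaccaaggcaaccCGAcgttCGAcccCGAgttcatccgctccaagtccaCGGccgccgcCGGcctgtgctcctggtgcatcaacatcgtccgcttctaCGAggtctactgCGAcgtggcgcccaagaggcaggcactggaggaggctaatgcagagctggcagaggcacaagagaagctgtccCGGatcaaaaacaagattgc
The long noncoding RNA gene ENSG00000267605 holds a site in all 3 SCAF8 lists (chr19:37282729-37282922, minus strand).
ENSG00000267605: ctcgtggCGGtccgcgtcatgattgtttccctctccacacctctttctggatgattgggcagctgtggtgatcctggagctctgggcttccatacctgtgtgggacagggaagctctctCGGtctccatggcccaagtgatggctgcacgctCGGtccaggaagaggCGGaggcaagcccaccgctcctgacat
TRMT11, a tRNA guanosine methyltransferase subunit, holds a site in intron 16 with 2 copies of TGTA (chr6:126052095-126052266, plus strand).
TRMT11 intron: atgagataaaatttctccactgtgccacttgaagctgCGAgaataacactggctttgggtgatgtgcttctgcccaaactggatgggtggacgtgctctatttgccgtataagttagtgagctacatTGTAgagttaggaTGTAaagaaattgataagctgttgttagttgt
RPTOR, which encodes the raptor subunit of mTOR complex 1, holds a site at exon 24 of 34 with 9 copies of CGG or CGA (chr17:80925349-80925542, plus strand).
RPTOR exon: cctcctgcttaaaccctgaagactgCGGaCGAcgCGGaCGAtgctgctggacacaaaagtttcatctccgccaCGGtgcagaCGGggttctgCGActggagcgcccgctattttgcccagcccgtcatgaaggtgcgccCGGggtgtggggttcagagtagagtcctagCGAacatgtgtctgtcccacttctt
The sites were thus of unlike make-up, from T- and GT-rich introns to GC-rich coding exons.

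Clusters of at least 2 SCAF8 lists made 20730 merged regions, and 6908 of these were free of input and control IP clusters. Among those 6908, 1503 (21.8%) had no SCAF4 cluster. A further 1513 had a cluster of 1 SCAF4 list and so fell just outside the rule, 2329 had clusters of 2 and 1563 of all 3. By the mirror rule, 5658 regions were SCAF4-only, which was 39.5% of 14322 free regions with at least 2 SCAF4 lists, and 3892 regions had at least 2 lists of both proteins (shared sites). The count depended on the SCAF4 IP lists, among them replicate 2, the list with the most clusters. Without that list there were 2638 SCAF8-only and 857 SCAF4-only sites, and without SCAF4 IP replicate 3 there were 1789 and 1369. The larger set thus changed sides in both, and without SCAF4 IP replicate 1 it did not (1647 and 4865). With 1 SCAF4 list left out, SCAF4-only sites needed both others, whereas SCAF8-only sites still needed 2 of 3 SCAF8 lists. Without replicate 1 of both proteins there were 728 SCAF8-only and 5556 SCAF4-only sites. Without replicate 2 of both there were 1480 and 953, and without replicate 3 of both 271 and 2457. Input and control IP removed 1101 of 2604 candidate sites, of which 365 overlapped inputs of the FLAG-SCAF8 line and no other background list, against 77 for inputs of the FLAG-SCAF4 line and 167 for parental inputs. Among inputs, those of the SCAF8 line held the most clusters in replicates 2 and 3 and the fewest in replicate 1. The part of list size in these counts was not tested.

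Most sites rested on 2 of 3 SCAF8 lists. Replicates 1 and 3 shared 725 sites, replicates 2 and 3 shared 561, replicates 1 and 2 shared 92, and 125 were in all 3 lists. Replicate 3 took part in 1411 sites (93.9%), replicate 1 in 942 and replicate 2 in 778. The median site was 167 nt long, against 165 nt for SCAF4-only and 211 nt for shared sites. Scores were not low within the lists. The members' clusters had median score percentiles of 54.9, 50.8 and 55.9 in replicates 1, 2 and 3, and those of shared sites 51.0, 51.9 and 50.3.

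**Figure D1:**
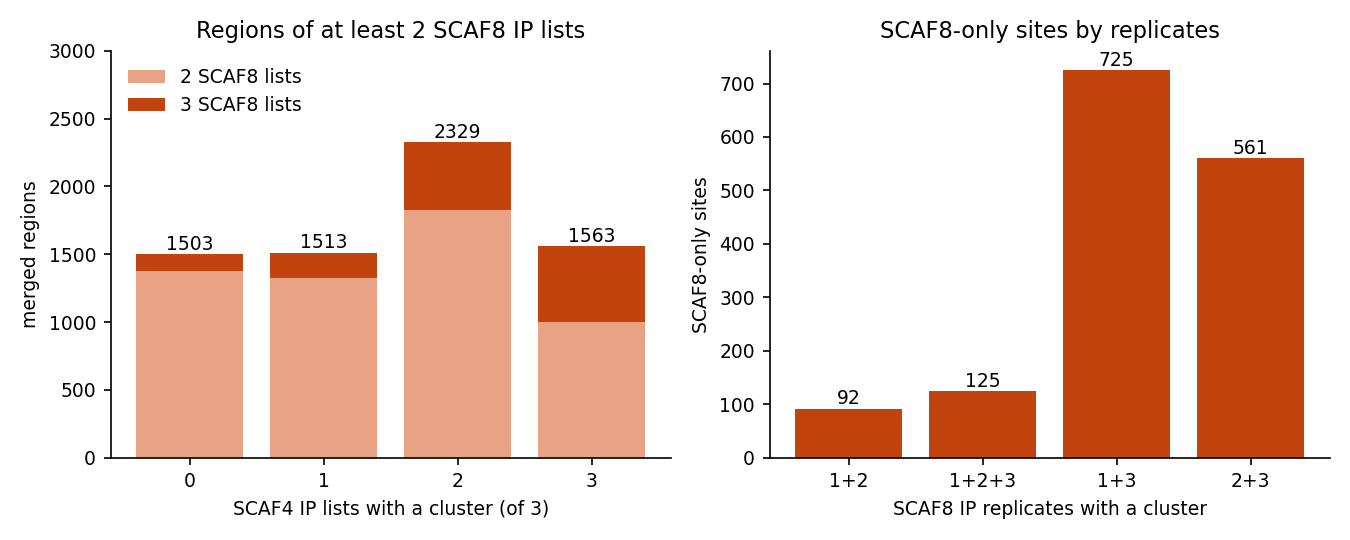
Left, merged regions free of input and control IP with clusters of 2 (light) or 3 (dark) SCAF8 IP lists, by the number of SCAF4 IP lists with a cluster, where the bar at 0 is the 1503 SCAF8-only sites. Right, SCAF8-only sites by the SCAF8 IP replicates that hold them, where most sites lie in replicate 3 and 1 other replicate and 125 lie in all 3.

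SCAF8-only sites lay in coding sequence far less often than the other sets. By midpoint and the longest isoform, 298 sites (19.8%) were in coding sequence, against 49.2% of SCAF4-only and 54.7% of shared sites. Introns of protein-coding genes held 569 sites (37.9%), against 28.9% and 21.2%. The 3′ UTRs held 212 sites (14.1%), against 7.1% and 8.6%, whereas 5′ UTRs held 34 (2.3%), against 2.7% and 4.5%.

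The remaining sites were spread over noncoding and unannotated RNA. Noncoding genes held 127 sites (8.5%), 72 of them in introns. Outside genes of the same strand lay 236 sites (15.7%), against 4.7% of SCAF4-only and 3.9% of shared sites. Of these, 112 were intergenic, 77 lay antisense to a gene, 38 within 2 kb downstream of a gene end and 9 within 2 kb upstream of a start. Within 10 kb downstream of a gene end on their strand lay 141 of the 236 (59.8%), against 67.2% of the SCAF4-only and 70.6% of the shared sites outside genes. Sites of replicates 2 and 3 were intergenic in 11.1% of cases and antisense in 8.2%, and sites of replicates 1 and 3 in 4.97% and 3.0%. The 125 sites of all 3 lists had 15.2% in coding sequence, 40.8% in introns and 14.4% outside genes. The share outside genes rested on replicate 2. Without replicate 2 of both proteins it was 8.51% and the exon share 49.9%, against 15.7% and 38.0% with all lists.

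**Figure D2:**
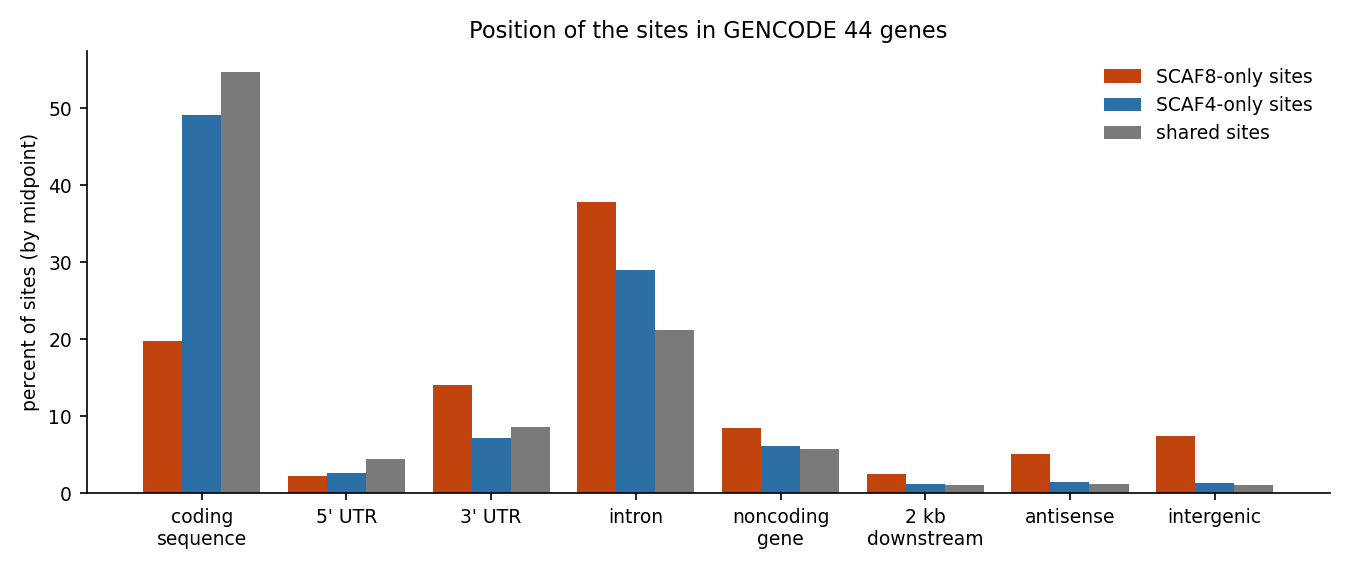
Percent of SCAF8-only (n = 1503), SCAF4-only (n = 5658) and shared (n = 3892) sites whose midpoint lies in each part of the GENCODE 44 annotation, where the class of other exons of protein-coding genes and the upstream class are left out. Coding sequence holds 19.8% of SCAF8-only sites and 49.2% of SCAF4-only sites, and the drawn classes outside genes are larger for SCAF8-only sites, whereas the upstream class is not (0.599% against 0.636% of SCAF4-only sites).

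The neighbours of the rule stood between or beside these values. Regions with 1 SCAF4 list, just outside the rule, lay in coding sequence in 39.7% and in introns in 27.8% of cases. The 12466 regions with 1 SCAF8 list and no SCAF4 list had 17.6% in coding sequence, 44.2% in introns and 14.7% outside genes, close to the members. These values used the lists that chose the sites and are given without a test.

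Within protein-coding genes, SCAF8-only sites lay at exon edges less often than the other sets. Exon edges of all isoforms were used, apart from the outer ends of the gene. Alternative transcript starts and ends were therefore counted together with splice sites. Of 1140 SCAF8-only sites in these genes, 32% spanned an exon edge, against 58.2% of SCAF4-only and 73.5% of shared sites. The 3′ edge of an exon, which is a 5′ splice site or an alternative transcript end, was spanned by 23.3%, against 43.7% and 60.4%. Intronic sites lay a median of 935 nt from the nearest exon edge, against 507 nt and 155 nt, and 48.0% of them were over 1000 nt away. The first intron held 32.3% of intronic sites, against 30.6% and 27.9%. Members lay at a median of 60.7% of the way through the gene, against 50.1% and 50.7%, and their genes had a median length of 61139 nt, against 43664 and 46428 nt.

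The comparison was then made with the list as the unit, where the coding-sequence measure was added after the data were seen. A private cluster overlapped no cluster of the other protein, the inputs or the control IP, and a joint cluster overlapped at least 1 cluster of the other protein and no background. Every SCAF8 cluster of a SCAF8-only site is private by this definition. The comparison thus reuses the clusters that chose the sites and is no separate support. Coding sequence held 18.5%, 20.6% and 17.3% of the private clusters of SCAF8 replicates 1, 2 and 3, and 45.7%, 40.5% and 44.8% of those of SCAF4. The groups did not overlap. Exons of protein-coding genes as a whole held 35.0% ± 1.65 (SD, n = 3 lists) of private SCAF8 clusters and 56.1% ± 3.39 of private SCAF4 clusters (two-sided exact permutation p = 0.1, the smallest that 3 against 3 lists allow, adjusted p = 0.18 over 9 measures). Introns held 42.6% ± 4.59 and 33.0% ± 2.62, and the space outside genes 14.6% ± 6.21 and 4.5% ± 1.76, both without overlap and with the same p values.

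Joint clusters gave the reference within a list. In SCAF8 lists, 49.5%, 49.8% and 46.2% of joint clusters lay in coding sequence, so that private minus joint was -31.0, -29.2 and -29.0 percentage points. In SCAF4 lists it was -9.42, -7.41 and -6.96 points. The exon share was lower among private clusters in 6 of 6 lists, with a mean of -20.1 points (two-sided exact sign-flip permutation p = 0.031, the smallest that 6 lists allow, adjusted p = 0.0391 over 10 measures). The difference was -29.2 ± 1.24 points with SCAF8 and -11 ± 1.67 with SCAF4 (SD, n = 3 lists each; exact permutation of the protein labels p = 0.1, adjusted 0.167). Introns gained 17.6 ± 5.24 points in SCAF8 lists and 9.53 ± 0.881 in SCAF4 lists, and the space outside genes 9.62 ± 4.49 and 0.417 ± 0.373 points, both higher among private clusters in 6 of 6 lists (exact sign-flip, adjusted p = 0.0391). Each list was split by the lists of the other protein, so the values of the 6 lists share data. The sign-flip tests treat them as independent, which limits every sign-flip p value given here. With clusters at or above their list's median score, the difference outside genes was 4.86 points and no longer passed (exact sign-flip, adjusted p = 0.104). The replicates are called biological in the study's methods. Replicate 1 was sequenced with longer reads than replicates 2 and 3, and its SCAF8 private clusters stood apart, with 7.4% outside genes against 18.6% and 17.7%. The part of read length in this was not tested.

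**Figure D3:**
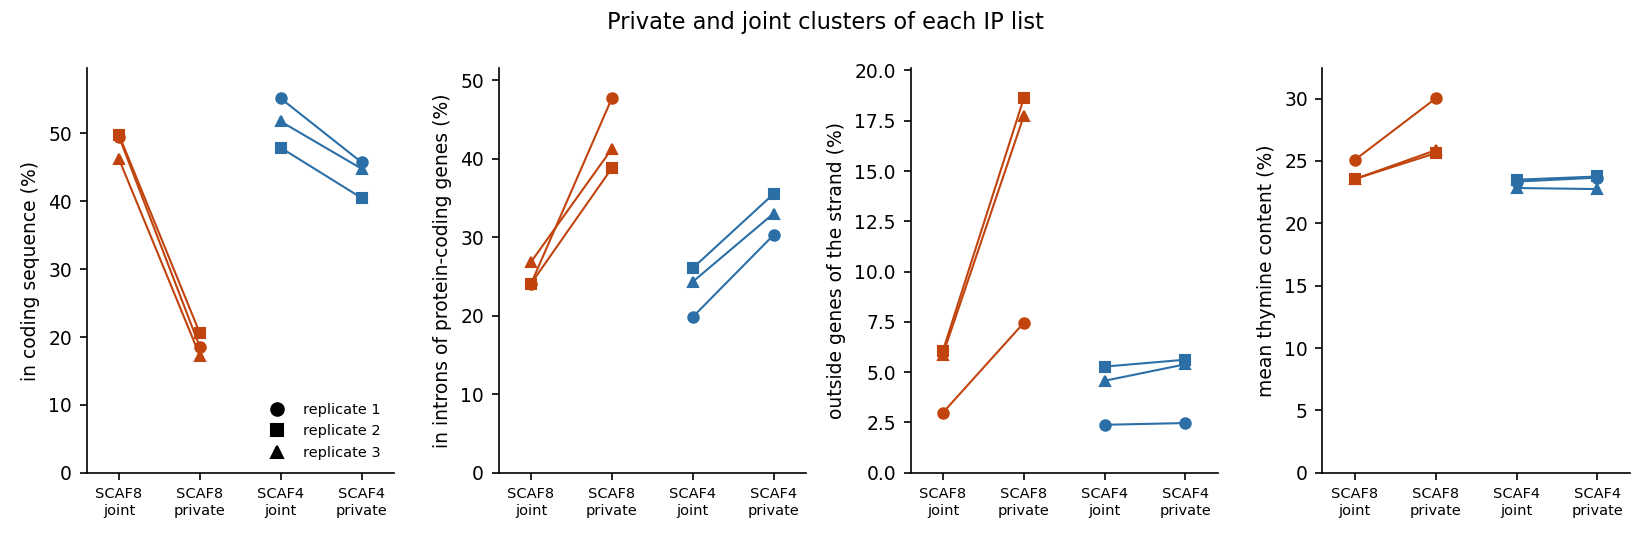
Percent of clusters in coding sequence, in introns and outside genes, and mean thymine percent in 100 nt around the midpoint, for joint and private clusters of each SCAF8 (orange) and SCAF4 (blue) IP list, where lines join the 2 classes of 1 list and symbols mark replicates. Private SCAF8 clusters fall to between 17.3% and 20.6% in coding sequence, below every other class of list.

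SCAF8-only sites held more T and less A than the other sets. In 100 nt around the midpoint, mean composition was 27.0% T, 22.5% A, 28.7% G and 21.8% C. SCAF4-only sites had 22.6% T and 26.6% A, and shared sites 23.2% T and 25.2% A. GC content was close in the 3 sets, at 50.5%, 50.8% and 51.6%. The higher T was found in the classes of position measured, which leave out 5′ UTRs and other exons. Coding-sequence members had 24.7% T, against 21.3% (SCAF4-only) and 22.7% (shared). Intronic members had 28.1%, against 24.9% and 25%, and 3′ UTR members 29.3%, against 23.5% and 23.7%. Outside genes the values were 25.8%, 21.7% and 22.7%. Median T was 28% for sites of replicates 1 and 3 and 24% for those of replicates 2 and 3, against 22% (SCAF4-only) and 23% (shared).

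Over the pooled sites, the difference was local to the site. At SCAF4-only sites T fell from 27.0% at 160 to 140 nt before the midpoint to 21.7% in the 20 nt after it and returned to 27.4% at 180 to 200 nt, and shared sites reached a low of 22.8%. At SCAF8-only sites the bins stayed between 25.8% and 27.8%. A content showed the converse, with a peak of 27.3% at SCAF4-only sites and 25.7% at shared sites, and a low of 21.9% at SCAF8-only sites just before the midpoint.

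**Figure D4:**
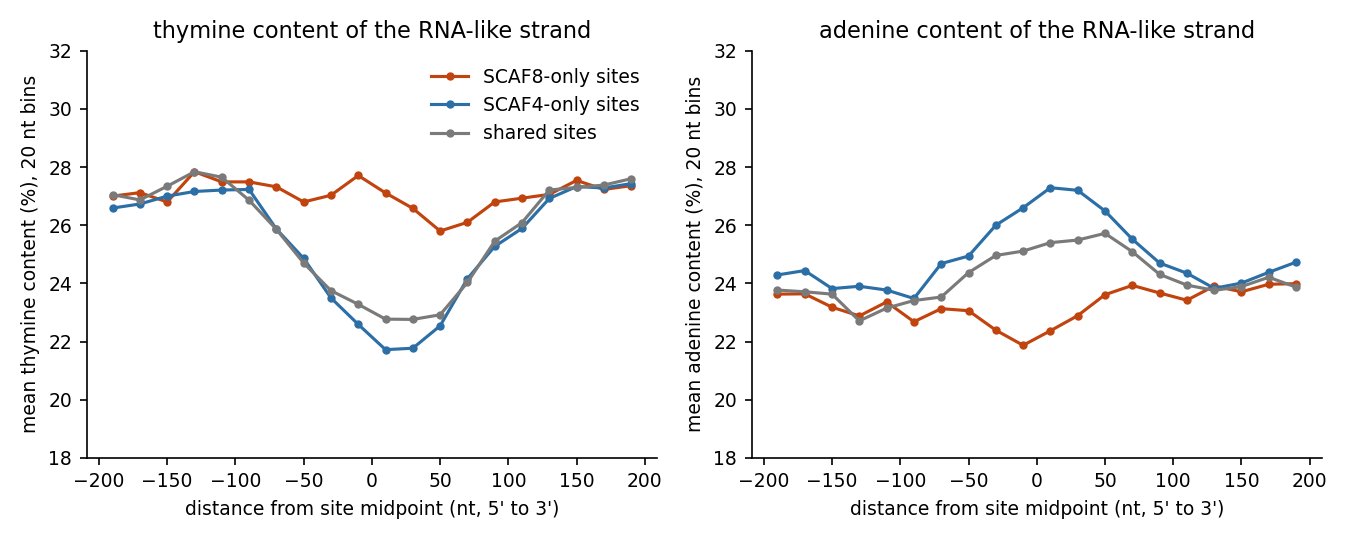
Mean thymine (left) and adenine (right) percent of the RNA-like strand in 20 nt bins from 200 nt before to 200 nt after the midpoint of SCAF8-only, SCAF4-only and shared sites, on axes that start at 18%. The thymine lines of SCAF4-only and shared sites dip to 21.7% and 22.8% near the midpoint, and that of SCAF8-only sites stays above 25%.

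Private clusters, which include the members' own clusters, were then measured list by list, again without a split by position. T in the central 40 nt minus T in the outer 40 nt at both ends of a window from 200 nt before to 200 nt after the midpoint was 0.699, -0.609 and -0.627 percentage points in private clusters of SCAF8 replicates 1, 2 and 3. In private SCAF4 clusters it was -4.25, -3.88 and -4.39, and in joint SCAF8 clusters -2.74, -3.18 and -3.10. The private SCAF8 lists did not overlap with these others. The difference between private SCAF8 and private SCAF4 clusters was 3.99 points (two-sided exact permutation p = 0.1, the smallest possible, 3 against 3 lists), and this measure was chosen after the profile was seen. Joint SCAF8 clusters also dipped less than joint SCAF4 clusters, which had -4.29, -3.66 and -4.11, by 1.01 points (exact permutation p = 0.1). Mean T over 100 nt was 27.2% ± 2.47 in private SCAF8 and 23.4% ± 0.558 in private SCAF4 clusters (exact permutation p = 0.1, adjusted 0.18). Replicate 1 was the highest of the SCAF8 lists with 30.0%, and replicates 2 and 3 had 25.6% and 25.9%. Its private clusters were also rich in T in the outer 40 nt, at 29.7%, against 26.5% and 26.7% in replicates 2 and 3. The outer values of private SCAF4 clusters were 27.6%, 27.4% and 26.8%. In SCAF8 replicate 1 the higher T was thus not confined to the centre. Private minus joint T was 4.93, 2.07 and 2.32 points in SCAF8 lists and 0.32, 0.27 and -0.083 in SCAF4 lists, and its mean of 1.64 points did not pass the threshold (exact sign-flip, adjusted p = 0.0694).

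Motifs were counted in the same 100 nt windows, with all 22474 free regions of at least 2 of the 6 IP lists as the base. TGTA was in 496 of 1503 members (33.0%), against 23.6% of SCAF4-only sites, 22.0% of shared sites and 25% of the base. On the opposite strand it was in 17.8% of members, against 23.2% and 21.5%. The share was 43.4% among 3′ UTR members, 35.2% in introns and 25.2% in coding sequence, and 24.3%, 29.6% and 20.2% at SCAF4-only sites in the same places. Private SCAF8 clusters held TGTA in 33.4% ± 4.69 of windows and private SCAF4 clusters in 25.8% ± 1.18 (exact permutation p = 0.1, adjusted 0.157 over 11 measures, a measure chosen after the data were seen). The share was highest in SCAF8 replicate 1, with 38.8%, and was 30.7% and 30.6% in replicates 2 and 3. Among members it was 35.9% for sites of replicates 1 and 3 and 41.3% for those of replicates 1 and 2. Sites of replicates 2 and 3 had 28.7% and sites of all 3 lists 29.6%, nearer to the base. A run of 5 T was in 13.9% of members against 7.0% and 7.1%, and in 6.8% on the opposite strand.

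GT-rich and A-rich words moved apart, and these were picked after their values were seen. GTGT, which overlaps TGTA where both share letters, was in 48.1% of members, against 30.6% of SCAF4-only, 34.0% of shared sites and 35.0% of the base. AAGA was in 41.2% of members, against 60.2%, 56.6% and 54.8%. The triplets CGG or CGA were in 65.2% of members, against 72.0%, 75.2% and 71.8%. In introns their share was 60.46%, against 60.05% of SCAF4-only and 71.07% of shared sites. In coding sequence it was 74.83%, against 77.81% and 76.95%, and in 3′ UTRs 60.38%, against 72.70% and 69.16%. Outside genes and in noncoding genes it was also lower among members than in both other sets. The share of these triplets was lower among private than joint clusters in 6 of 6 lists (mean -8.78 points, exact sign-flip adjusted p = 0.0391). That comparison was not split by position, and the part of position in it was not tested. CAG with C or G on both sides was in 42.0% of members, against 47.8% and 47.1%, and CTCC or CACC in 50.9%, against 50.3% and 53.7%. The polyadenylation signals AATAAA and ATTAAA were in 3.5% and 1.7% of members, against 3.0% and 1.8% of SCAF4-only sites. The 5′ splice site words GTAAGT and GTGAGT were in 2.5% and 3.9%, against 2.0% and 3.0%. A match says only that the letters were present.

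SCAF4 clusters were often near. A SCAF4 IP cluster lay within 100 nt of 9.4% of members, within 1000 nt of 36.7% and within 10000 nt of 75%. For SCAF4-only sites and SCAF8 clusters the shares were 7.8%, 39.3% and 79.3%. Of 1267 members in genes, 1163 (91.8%) were in genes with a SCAF4 cluster elsewhere, and 104 were not. Of SCAF4-only sites in genes, 90.2% were in genes with a SCAF8 cluster.

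The 1267 sites in genes fell in 971 genes, 875 of them protein-coding and 76 long noncoding RNA genes. This was 13.8% of the 7051 genes with a free region in at least 2 of the 6 IP lists, and 44.9% of those 7051 held a SCAF4-only site. A single site was found in 797 genes and at least 2 in 174. In 501 of the 971 genes a SCAF4-only or shared site was also present, and 101 had no cluster of any SCAF4 list.

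DNAH17 held the most sites, 18, beside 2 shared and no SCAF4-only sites. Its clusters numbered 2, 58 and 105 in SCAF8 IP replicates 1, 2 and 3, and 0, 14 and 14 in SCAF4 IP. The inputs of the FLAG-SCAF8 line held 0, 30 and 18, while the other 6 inputs and 3 control IPs held none. Input clusters in this gene were thus found in the FLAG-SCAF8 line alone, and its clusters came mainly from replicates 2 and 3.

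The long noncoding RNA gene ENSG00000267605 held 10 sites. It had 5, 21 and 52 clusters in SCAF8 IP, 0, 17 and 7 in SCAF4 IP, 0, 0 and 3 in the SCAF8-line inputs and none in the other inputs. TRMT11 held 8 sites, with 23, 10 and 29 clusters in SCAF8 IP and 0, 12 and 4 in SCAF4 IP. Its SCAF8-line inputs held 14, 7 and 6, parental inputs 9, 2 and 3, and SCAF4-line inputs none. EPN1, which encodes the endocytic adaptor epsin, held 7 sites, with 17, 27 and 39 clusters in SCAF8 IP against 5, 17 and 13 in SCAF4 IP. Its inputs held 1, 11 and 9 in the SCAF8 line, 0, 3 and 3 in the SCAF4 line and 2, 6 and 5 in parental cells. SNHG16, a small nucleolar RNA host gene, held 7 sites, with 38, 24 and 44 against 10, 23 and 18. Input clusters in SNHG16 numbered 20, 13 and 11 in the SCAF8 line, 14, 5 and 2 in the SCAF4 line and 17, 2 and 2 in parental cells. RPTOR held 7 sites, with 21, 17 and 45 in SCAF8 IP against 7, 22 and 21 in SCAF4 IP, and 3, 5 and 3 in the SCAF8-line inputs against 3, 4 and 3 and 3, 1 and 2 in those of the SCAF4 line and parental cells. The counts of both IPs overlapped in DNAH17, ENSG00000267605, TRMT11 and RPTOR and met at 17 in EPN1, and RPTOR also held 3 SCAF4-only sites.

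NID1, encoding the basement membrane protein nidogen, held 6 sites and had 6, 6 and 12 clusters in SCAF8 IP, 1, 1 and 2 in SCAF4 IP, 1, 2 and 1 in the SCAF8-line inputs and none in the other 6 inputs. RFC3, a subunit of the clamp loader of DNA replication, held 6, with 41, 38 and 32 input clusters in the SCAF8 line against 16, 6 and 3 in the SCAF4 line and 30, 13 and 14 in parental cells. IGF2BP2, an mRNA-binding protein gene, and ANKRD11, a chromatin regulator gene, also held 6 each. WTIP, REXO1, XKR6 and TRIO held 5 each. SMIM47, ZNF587B, NPIPB5, ZC3H18, ENSG00000288715 and LARP4B held 4 each, and NPIPB5 belongs to a family of near-identical copies among which reads could be split. ENSG00000288715 lies within ANKRD11 on the same strand, and its 4 sites are not counted among the 6 of ANKRD11. Counts are not set between genes here, since they also depend on gene length.

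**Figure D5:**
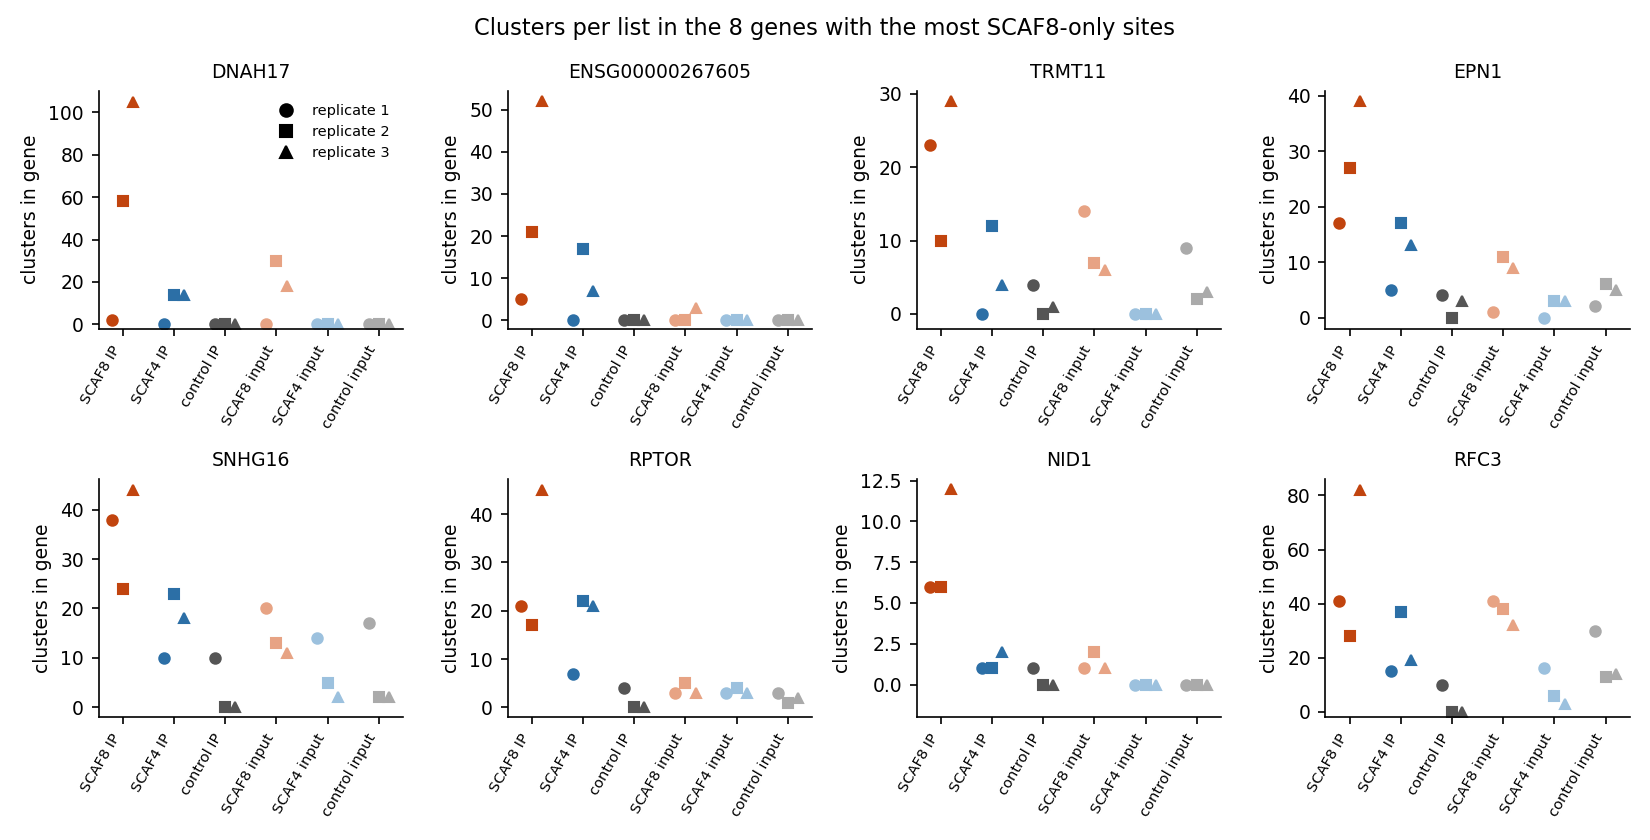
Clusters per list inside the 8 genes with the most SCAF8-only sites, in SCAF8, SCAF4 and control IP and in the matching inputs, with 1 symbol per replicate and a separate axis per gene. In DNAH17 the SCAF8 IP lists reach 105 and the SCAF8-line inputs 30, whereas the SCAF4-line and parental inputs are at 0.

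Inputs of the 3 lines differed in these genes. Genes with SCAF8-only sites held 21.9%, 19% and 19.1% of the clusters of the SCAF8-line inputs in replicates 1, 2 and 3. They held 15.8%, 13.7% and 13.5% of those of the SCAF4-line inputs, and 20.1%, 15.9% and 16.0% of those of the parental inputs. Within each replicate number the SCAF8 line was highest and the SCAF4 line lowest. The order was the same without the 20 genes with the most sites, at 19.4%, 16.9% and 17.1% against 14.4%, 12.9% and 12.6%. For genes with SCAF4-only sites, the shares were 41.2%, 40.3% and 40.5% in SCAF8-line inputs and 44.4%, 43.6% and 44.4% in SCAF4-line inputs and 47.0%, 41.8% and 43.2% in parental inputs. Of the 971 genes, 29 (2.99%) had clusters in at least 2 inputs of the SCAF8 line and in none of the other 6, 1 had them in the SCAF4 line alone and 5 in parental cells alone. Of 3163 genes with SCAF4-only sites the numbers were 45 (1.42%), 17 and 16. The SCAF8-line inputs held the most clusters of the 3 lines in replicates 2 and 3 and the fewest in replicate 1. Whether list size had a part in these numbers was not tested. The 29 genes held 63 sites, and 13 of the 29 genes were on chromosome 19, among them WTIP, SMIM47, ZNF580, ZNF223 and ZNF426. Cells and IPs of a line share their RNA, and the part of RNA abundance in the choice of sites was not tested. Without these 29 genes, the sites had 37.2% in exons, 37.7% in introns, 16.4% outside genes and a median T of 27%, an alternative chosen after the data were seen.

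Chromosome 19 held 232 sites (15.4%), against 4.6% of SCAF4-only and 8.0% of shared sites. A site was present in 139 of its 541 genes with free regions (25.7%), against 13.8% over all chromosomes. Of the 232, 102 were in introns, 71 in exons, 30 in noncoding genes and 29 outside genes. Private SCAF8 clusters were on chromosome 19 in 8.1%, 15.8% and 12.1% of cases, and private SCAF4 clusters in 4.4%, 5.0% and 5.1%. Over all clusters, inputs of the SCAF8 line had 7.8%, 11% and 10.7% there, parental inputs 7.7%, 10.2% and 11.1%, and SCAF4-line inputs 6.5%, 8.0% and 8.2%. The SCAF4-line inputs were thus lowest within each replicate number.

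Zinc finger genes, many of which lie in arrays on chromosome 19 and encode DNA-binding repressors, held sites in 43 of 225 genes with free regions (19.1%, beside 13.8% over all genes) and SCAF4-only sites in 74 (32.9%, beside 44.9%). Zinc finger genes of chromosome 19 held 42 sites, and 25.7% of all genes with free regions on that chromosome held a site. ZNF587B held 4 sites, ZNF551 held 3, and ZNF548, ZNF587, ZNF8 and ZNF549 held 2 each. ZNF324B, ZNF416, ZNF580 and ZNF134 held 1. In ZNF551 there were 14, 7 and 13 clusters in SCAF8 IP and 1, 12 and 1 in SCAF4 IP, and its inputs held 6, 5 and 9 in the SCAF8 line, 1, 0 and 1 in the SCAF4 line and 0, 0 and 1 in parental cells. In ZNF549 there were 5, 3 and 6 against 0, 3 and 1, with at most 1 cluster in any input. ZNF587 and ZNF587B are close copies, and reads could be split between them.

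Sites in genes of the transcription and 3′ end machinery were counted over fixed lists. Of 19 cleavage and polyadenylation genes with free regions, 4 held a site (21.1%, beside 13.8% over all genes), and 7 a SCAF4-only site (36.8%, beside 44.9%). These were SYMPK, the scaffold symplekin, PAPOLA, the canonical poly(A) polymerase, CSTF3, a subunit of the cleavage stimulation factor, and FIP1L1, a subunit of the polyadenylation specificity factor. The PAPOLA site lay in the 3′ UTR in all 3 SCAF8 lists with a mean score percentile of 78.9. CSTF3 had 2, 1 and 2 clusters in SCAF8 IP and 0 in the 3 SCAF4 IP lists. Of 34 elongation and termination genes, 5 held a site (14.7%, beside 13.8%), and 23 a SCAF4-only site (67.6%, beside 44.9%). XRN2, the nuclear exonuclease of termination, and RPRD1B, a relative of SCAF4 and SCAF8 that binds the polymerase tail, held 2 each, and SCAF1, SUPT5H and SCAF4 held 1 each. Within SCAF4 there were 4, 5 and 11 clusters in SCAF8 IP and 16, 25 and 24 in SCAF4 IP, and the SCAF8 gene held no site. Of 7 polymerase subunit genes, 2 held a site (28.6%, beside 13.8%), POLR2B and POLR2F, with 1 each.

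Splicing and ribosomal genes were near the share of all genes. Of 27 SR protein and hnRNP genes, 4 held a site (14.8%), namely HNRNPU with 2 and SRSF3, TRA2B and HNRNPR with 1. Of 58 ribosomal protein genes, 7 did (12.1%), with 3 sites in RPS9, 2 in RPL27A and 1 each in RPL26, RPL38, RPS14, RPS4X and RPS24.

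The best-scored sites among those in all 3 lists named further genes. The first, with a mean score percentile of 96.4, lay in coding exon 5 of CPNE1, which encodes a calcium-dependent membrane-binding protein. PDCD6, a calcium-binding adaptor gene, held an intronic site at 87.7, and VCP, the p97 ATPase, a 3′ UTR site at 86.1. TMEM86B and AP3S2 held sites in coding exons, TM9SF4 in the 3′ UTR and OCIAD1 in intron 1. A site upstream of DRD4 and 2 intergenic sites on chromosome 10 were also among them, beside the NUTM2B-AS1, PFKP, LIPE-AS1 and PAPOLA sites. Their T content ran from 18% to 37%, so a high score went with no single composition.

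Some sites outside genes lay close together. With neighbours joined up to 20 kb apart, 12 runs of at least 3 sites held 40 of the 236 sites outside genes (16.9%). For SCAF4-only sites, 15 runs held 76 of 265 (28.7%), and for shared sites 4 runs held 16 of 153 (10.5%). The run with the most sites held 5 over 17479 nt that began 1323 nt after the end of KAT7, a histone acetyltransferase gene (chr17:49836350-49853828, plus strand). It held 8, 8 and 13 clusters in SCAF8 IP, 0, 0 and 2 in SCAF4 IP and at most 2 in any input. A second, of 4 sites over 3736 nt (chr10:130192458-130196193, plus strand), began 7936 nt after GLRX3 and had 2, 5 and 7 clusters in SCAF8 IP and none in the other 15 lists. A run after EPHX1, 798 nt from its end, had 1, 3 and 9, and one 18551 nt after CDC42 had 2, 2 and 8, again with none in the other 15 lists. A run after BUB3 had 8, 5 and 14 in SCAF8 IP, 0, 2 and 0 in SCAF4 IP and 6, 3 and 3 in the SCAF8-line inputs. Runs after MCM5 and GINS2 had 4, 8 and 13 and 4, 3 and 11 in SCAF8 IP, with at most 3 in any SCAF4 IP list. SCAF4 clusters were most numerous in the next pair. A run of 4 sites at chr1:235062462-235079464 (minus strand) had 7, 9 and 22 in SCAF8 IP, 5, 10 and 8 in SCAF4 IP and 5, 2 and 2 in control IP. A run after HMGN2 had 2, 14 and 25 in SCAF8 IP and 1, 10 and 6 in SCAF4 IP. Runs after RPS3 and SRSF5 had no cluster in SCAF8 IP replicate 1, whereas every other run had clusters in all 3 SCAF8 IP lists.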

How the data were processed

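PAR-CLIP was analysed from 18 cluster lists in BED format on GRCh38, each joining a soluble and a chromatin library. Per the study's methods, the authors trimmed reads (Trim Galore and cutadapt), aligned them with Bowtie2 2.2.9, removed duplicates with Picard and called clusters with PARalyzer. The deposited score of a cluster, between 0.501 and 1, was used as a rank within its list, since the files do not state how it was made. Removing duplicates without molecular identifiers can merge separate molecules, and calling thresholds make the number of clusters depend on depth.

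Sites were merged as described, placed by midpoint in GENCODE 44 genes of the same strand (a position in a gene body outside its exons counted as intronic), and scanned in 100 nt windows with Python 3.11.15, NumPy 2.4.6 and pysam 0.24.0. Measures of private and joint clusters were compared over lists by exact permutation or sign flips, two-sided, with Benjamini-Hochberg adjustment, and the code was tested on simulated data. No replicate block was used in the main comparison. Named genes were the 20 with the most sites, those of the 15 best-scored sites in all 3 lists, members of the gene lists (up to 10 a list) and SCAF4 and SCAF8. Alternatives changed the lists required, overlap, score, background removal, distance, sites per gene, position, window and replicates. Members and lists were chosen with earlier results of these data known. The sequence of 1 further site is not reported here.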

Additional observations from a re-analysis of the deposited data

How the results depend on the processing

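The number of SCAF8-only and SCAF4-only sites depended on the lists. It was 125 and 696 with all 3 lists required, 891 and 2848 when clusters under their list's median score were dropped, and 1000 and 3689 without genes of dense input. Without removal by input or control IP there were 2604 SCAF8-only sites, and 1 site per gene left 3428 SCAF4-only sites. Leaving out 1 replicate number gave 271 to 2638 SCAF8-only and 857 to 5556 SCAF4-only sites, and 0.325 to 9.07 SCAF4-only sites per SCAF8-only site, where single SCAF4 IP lists were left out too. The lowest ratio was that without SCAF4 IP replicate 2, and without SCAF4 IP replicate 3 it was 0.765. In these settings SCAF4-only sites needed both SCAF4 lists left, which lowers the ratio by the rule itself. Without replicate 2 of both proteins it was 0.644.

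With all 3 lists required, exons held 32.8%, introns 40.8%, median GC was 53%, 37.6% had a SCAF4 cluster within 1000 nt and 29.6% held TGTA. At or above the median score these were 45.5% (exons), 33.0% (introns) and 65.4% (near SCAF4), the last counting low-scored SCAF4 clusters by construction, and 53.7% held CTCC or CACC. Removal by more than 1 input gave 39.6% in introns, 37.7% near SCAF4 and 48.9% with CTCC or CACC. Without genes of dense input, introns held 29.9%, the space outside genes 21.1%, and 25% were near SCAF4. Without any removal, introns held 40.4%, median T was 28%, 39.9% were near SCAF4, 57.3% held CGG or CGA, 45.2% CTCC or CACC and 37.3% TGTA. Without sites near the other protein within 100 nt, 30.1% were near SCAF4. With 1 site per gene, introns held 34.1%, with any exon overlap 36.2%, and without chromosome 19 (chosen after the data were seen) 36.7%. Over whole regions, 76.2% held CGG or CGA, 61.6% CAG between C or G, 67.5% CTCC or CACC and 46.6% TGTA.

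Leaving out 1 list or number gave 32.8% to 49.9% in exons, 33.5% to 37.6% in introns, 8.51% to 21.0% outside genes and 32.2% to 38.8% near SCAF4. Median GC ran from 49% to 53%, CGG or CGA from 64.5% to 69.9%, CAG between C or G from 39.8% to 50.3%, CTCC or CACC from 48.4% to 52.3% and TGTA from 28.6% to 34.3%. Private SCAF8 minus private SCAF4 GC ran from -1.84 to 0.62 points and length from -5.94 to 0.051 nt, with the sign turned without replicate 1 (GC) and 2 (length).

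Private minus joint differences kept their sign without replicate 1, 2 or 3, where 4 lists cannot reach the threshold, except the score percentile (-0.676 to 0.143, and 0.0318 without replicate 3). Ranges were -20.7 to -19.3 (exons), 11.8 to 14.6 (introns), 4.31 to 6.39 (outside), -1.78 to -1.12 (GC), -17.4 to -15.8 nt (length), -9.42 to -7.55 (CGG or CGA), -3.00 to -1.28 (CAG between C or G), -3.38 to -2.47 (CTCC or CACC), 4.38 to 6.34 (TGTA) and -19.3 to -18.1 (coding sequence). At or above the median score, the difference outside genes was 4.86 (adjusted p = 0.104), that of CAG between C or G -2.10 (adjusted p = 0.219) and that of the score percentile -4.22 (adjusted p = 0.0446, exact sign-flip tests).

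With replicate numbers as a block, the exon difference between private SCAF8 and SCAF4 clusters was -21.2 points (exact sign-flip adjusted p = 0.45). The smallest p that 3 pairs allow is 0.25, so this fit could make no call and says nothing about stability. Deviations of same-numbered lists correlated at 0.474, -0.577 and 0.538, so same-numbered lists did not all deviate together. Replicate 1 differed from the others in read length in all lines. Unknown read depth limits these results: an absent cluster is not absent binding. The cause of these changes was not tested.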
